A study of Mus musculus with 11 samples.

Results

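The comparison is of EC4 cells in the MYC low state kept for 24 h with 10 µM methionine, against EC4 cells in the same state kept for 24 h with 200 µM methionine. EC4 is a mouse liver cancer line. Each medium had 3 libraries of polyadenylated RNA, which are 6 of the 11 libraries of the series, and all 6 carry the genotype label MYC off, so that whatever lowers MYC is shared by both media. The labels name no agent that switches MYC, give DMEM with 200 µM methionine as the growth medium, and do not say whether the line is a clone or whether replicates came from separate cultures. The p-values below therefore measure the spread between libraries, which may be technical. The remaining 5 libraries are of MYC high cells (genotype label MYC on), 3 at 10 µM and 2 at 200 µM, and are used in the closing comparison of the 2 states and in the estimate of the spread behind every test. By its title the series concerns MYC-driven liver tumours, their use of methionine and the RNA methyltransferase NOP2. Of 55416 gene identifiers, 12849 averaged 10 or more normalized counts in these 6 libraries and were tested, 10962 of them protein coding.

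Methionine is an essential amino acid that starts nearly every protein and is turned into S-adenosylmethionine, the donor of most cellular methyl groups, and into decarboxylated S-adenosylmethionine for the polyamines. Mammalian cells are known to sense a shortage of amino acids through the kinase GCN2, whose activity raises translation of the transcription factor ATF4, and through mTORC1, which controls ribosome production and lipid synthesis. MYC is a transcription factor known for driving ribosome biogenesis, nucleotide synthesis and amino acid uptake in liver cancer.

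Each 10 µM library held 12194511 to 13085689 reads on genes, and each 200 µM library 11446651 to 12066545. The number of genes with a read was 18172 to 18462 at 10 µM and 17708 to 17891 at 200 µM. Libraries of a medium lay close together: replicate pairs had Pearson correlations of 0.994 to 0.995 across genes, and the leading principal component of the 6 libraries carried 78.6% of the variance and separated the media. Replicates differed by more than counting noise (chi-square over its expectation, 1.40 to 1.84). Cytosolic ribosomal protein transcripts took 2.76% to 2.83% of reads at 10 µM and 3.83% to 3.89% at 200 µM. Mitochondrial messenger RNAs took 1.34% to 1.39% of reads at 10 µM and 1.47% to 1.54% at 200 µM. The mouse Myc transcript, the readout nearest to the MYC label, is given below with the MYC network.

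The lower methionine supply went with many changes of small size. By limma at a Benjamini-Hochberg adjusted p of 0.05, 7646 genes differed (59.5% of the genes tested), 3801 higher at 10 µM (29.6%) and 3845 lower (29.9%). The median fold of the genes that changed was 1.31. At least 2-fold changes were found for 700 genes (5.45%), 436 higher (3.39%) and 264 lower (2.05%), and at least 4-fold changes for 93 genes higher and 35 lower. The median log2 difference (10 µM minus 200 µM) over all tested genes was 0.0016, and the middle 90% of the genes lay between −0.71 and 0.84. Values of the 10 µM and 200 µM libraries did not overlap for 8453 genes (65.8%). These are bulk libraries, in which a change in the share of cells of a kind and a change in RNA per cell cannot be told apart.

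The genes with the largest rise at 10 µM were led by Ccdc80, a secreted protein of the extracellular matrix. Ccdc80 had 212, 176 and 198 normalized counts at 10 µM, against 11.7, 11.3 and 9.68 at 200 µM (log2 difference 4.04, SE 0.233, adjusted p = 1.64e-17). The groups lay 17.9-fold apart in their means. Cldn2, a claudin that forms cation pores in tight junctions, had 487, 432 and 463 normalized counts at 10 µM, against 89.7, 68.6 and 67.7 at 200 µM (log2 difference 2.61, SE 0.167, adjusted p = 3.74e-16). Peg10, an imprinted gene derived from a retrotransposon, averaged 8101 ± 348 normalized counts at 10 µM and 1599.7 ± 115 at 200 µM (SD, n = 3 each; log2 difference 2.34, SE 0.0408, adjusted p = 1.73e-33). Groups that do not overlap and an adjusted p under 0.05 by limma were conditions for entering the 10 largest rises, so neither adds support. Others of the 10 largest rises among genes with a mean of at least 100 were Padi3, a deiminase of protein arginines (log2 3.25), the surface protein gene Ly6c1 (log2 2.97), the transcription factor Pax8 (log2 2.49), the aromatic amino acid decarboxylase Ddc (log2 2.43) and the placental hormone gene Prl2c5 (log2 2.05). Ly6c1 and Prl2c5 have close paralogs, so their counts are uncertain.

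The 10 largest falls among genes with a mean of at least 100 held 4 genes of the ATF4 list, namely Cdsn (log2 −3.30), Trib3 (log2 −3.27), Pycr1 (log2 −3.15) and Chac1 (log2 −2.80), and 4 hosts of small nucleolar RNAs, namely Snhg1 (log2 −2.95), Snhg12 (log2 −2.89), Zfas1 (log2 −2.82) and 2410006H16Rik (log2 −2.81). The ATF4 list was written with earlier results of these data known, and the list of hosts after values had been seen. These counts of members are therefore descriptions. The other members were Gadd45a, a stress and growth arrest gene (log2 −2.96), and the transcript E230016M11Rik (log2 −3.07). Gadd45a had 184, 174 and 140.2 normalized counts at 10 µM, against 1283, 1315 and 1277 at 200 µM (log2 difference −2.96, SE 0.0698, adjusted p = 1.68e-29). As for the rises, groups that do not overlap and an adjusted p under 0.05 by limma were conditions for entering these falls.

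**Figure D1:**
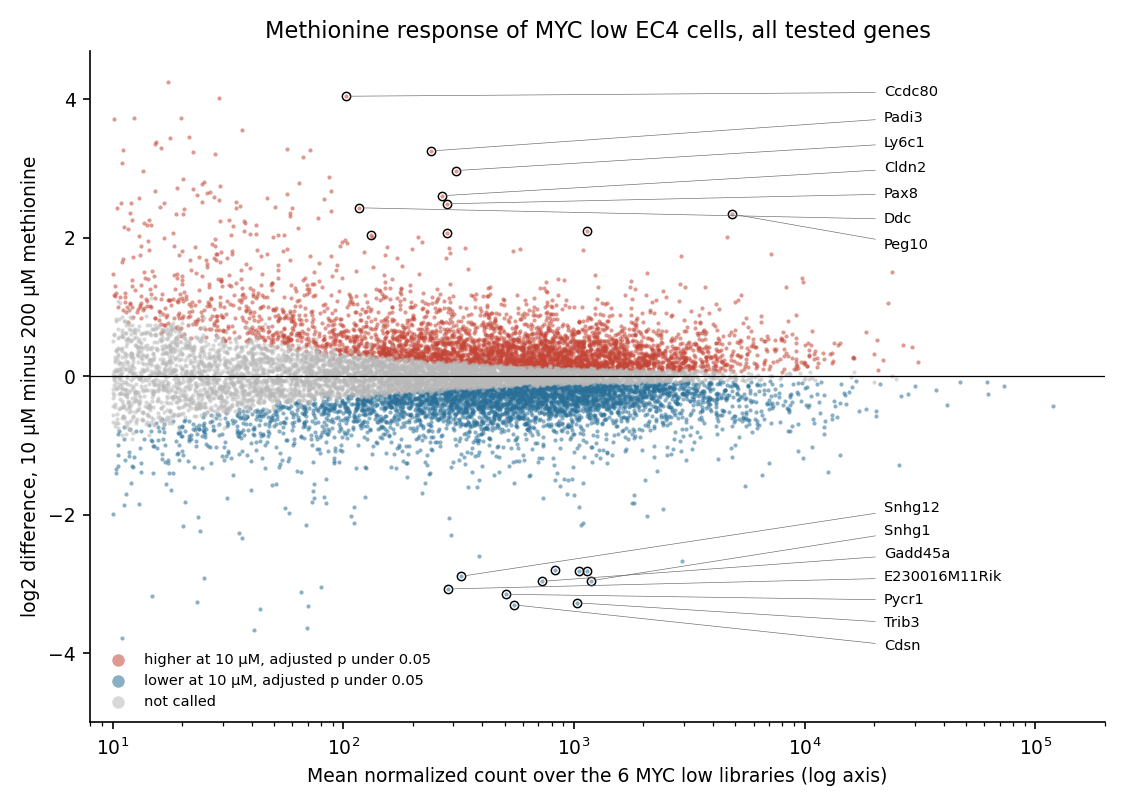
Log2 difference (10 µM minus 200 µM methionine, vertical axis) against the mean normalized count over the 6 MYC low libraries (horizontal log axis), 1 point per tested gene, with the 10 largest rises and falls among genes with a mean of at least 100 circled and the 7 largest in each direction labelled. Circled genes were also required to have an adjusted p under 0.05 by limma and groups that do not overlap. Genes that passed limma's test lie on both sides of 0 at every level, and Ccdc80 at 4.04 and Cdsn at −3.30 are the labelled extremes.

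The 46 lists of pathway genes describe the response by function. Members of each list are counted by limma's call over all tested genes, and each count is to be read against the 29.6% of all genes that were higher and the 29.9% that were lower. List medians ranged from −1.11 for the ATF4 response and −1.01 for small neutral, cationic and cystine carriers to 0.76 for cholesterol synthesis, with mitosis at 0.41, glycolysis at 0.48 and cytosolic ribosomal proteins at −0.49.

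**Figure D2:**
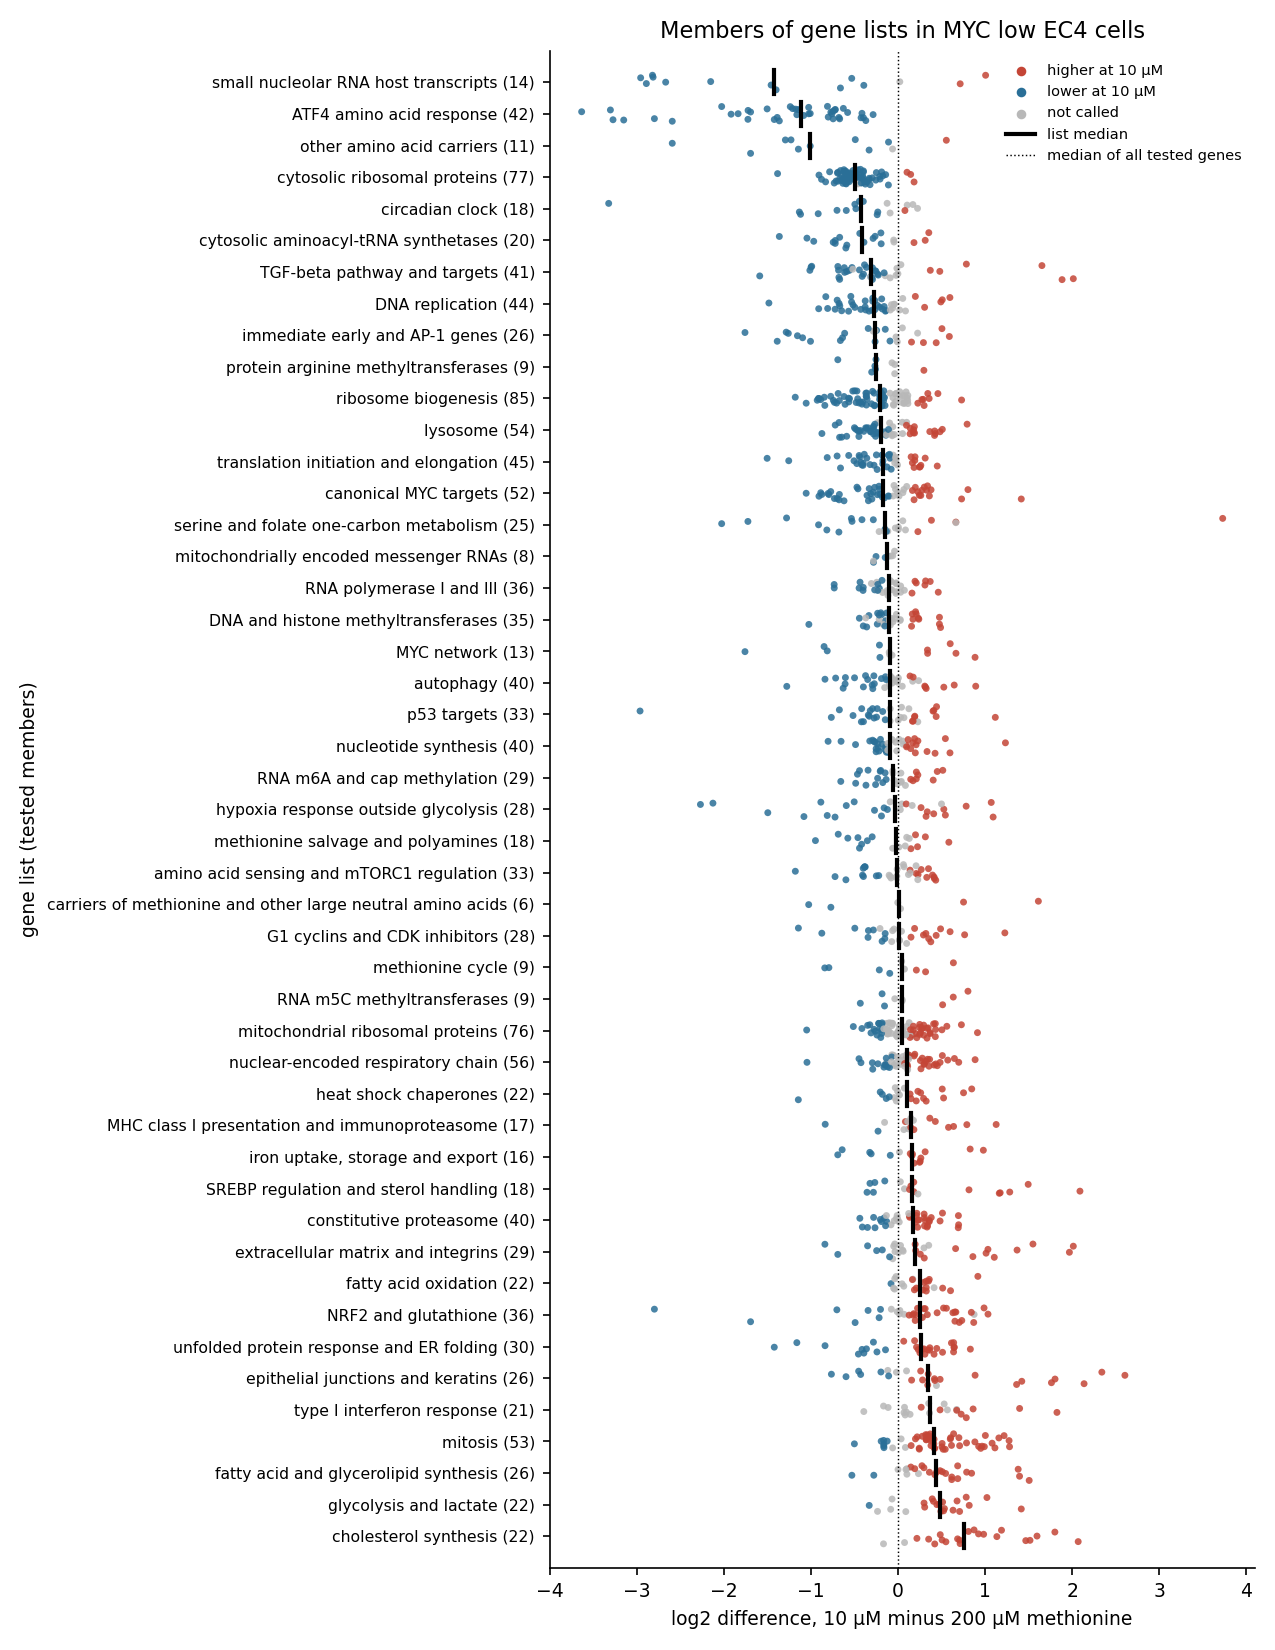
Log2 difference (10 µM minus 200 µM methionine, horizontal axis) of every tested member of 47 gene lists, 1 row per list, sorted by the list median (black bar), with a dotted line at the median of all tested genes. The ATF4 response lies wholly left of 0 with a median of −1.11, and cholesterol synthesis lies almost wholly to the right with a median of 0.76.

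The methionine cycle itself moved in both directions and within a 2-fold range. Of 9 tested members, 3 were higher and 4 lower, with a median log2 difference of 0.04. The enzymes that remake methionine from homocysteine were lower: Mtr, methionine synthase, averaged 501 ± 20.2 normalized counts at 10 µM and 897 ± 3.07 at 200 µM (SD, n = 3 each; log2 difference −0.84, SE 0.0543, adjusted p = 4.59e-16), and Mtrr, the reductase that keeps Mtr active, averaged 257 ± 13.6 normalized counts at 10 µM and 445 ± 9.91 at 200 µM (SD, n = 3 each; log2 difference −0.79, SE 0.0675, adjusted p = 9.79e-13). Adenosine kinase Adk, which clears the adenosine released from S-adenosylhomocysteine, rose (1544, 1550.3 and 1576 normalized counts at 10 µM, against 903, 1112 and 998 at 200 µM; log2 difference 0.64, SE 0.0547, adjusted p = 1.24e-12). The 10 µM libraries did not overlap the 200 µM libraries for these 3 genes.

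Mat2a makes S-adenosylmethionine and is known to be stabilised as a transcript when that metabolite is short. Its counts were close in the media, with 2243, 2175 and 2235 normalized counts at 10 µM, against 2365, 2336 and 2399 at 200 µM. The difference was small (log2 difference −0.09, SE 0.0369, adjusted p = 0.0277) and was lost when DESeq2 or scaling by library totals was used (adjusted p = 0.055 and 0.079), and without each of 3 libraries. Mat2b, the regulatory subunit, and Mettl16, the RNA methyltransferase known to act on the Mat2a transcript, were higher (log2 0.32 and log2 0.21). Ahcy, which splits S-adenosylhomocysteine, had 1254, 1184 and 1175 normalized counts at 10 µM, against 1135, 1176 and 1118 at 200 µM. Its log2 difference of 0.08 did not pass the test (adjusted p = 0.0982; 95% interval −0.0045 to 0.15), though it did under scaling by library totals (adjusted p = 0.037). Its relative Ahcyl2 was lower (log2 −0.21). The liver enzymes Mat1a, Bhmt and Bhmt2 had no read in the 6 libraries.

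In the salvage and polyamine list, 5 of 18 members were higher and 8 lower. Odc1, which makes putrescine and is a textbook MYC target, averaged 3138 ± 102 normalized counts at 10 µM and 4315 ± 147 at 200 µM (SD, n = 3 each; log2 difference −0.46, SE 0.0331, adjusted p = 1.02e-14). Azin1, which frees Odc1 from its antizymes, was also lower (log2 −0.42), as was the spermine oxidase Smox (log2 −0.69). Sat1 and Paox, which break polyamines down by acetylation and oxidation, were higher (log2 0.32 and log2 0.58), and so was Amd1, the decarboxylase of S-adenosylmethionine (log2 0.20). On the salvage side, Mtap, which splits methylthioadenosine, was higher (1349, 1329 and 1339 normalized counts at 10 µM, against 1103, 1176 and 1158 at 200 µM; log2 difference 0.23, SE 0.0395, adjusted p = 6.41e-06), while Mri1, the next enzyme, and Got1, a transaminase of the list, were lower (log2 −0.58 and log2 −0.95).

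Of 6 tested carriers of methionine and other large neutral amino acids, out of 10 listed, 2 were higher and 2 lower. These shares, 33.3% each, are near the 29.6% and 29.9% of all genes. Slc3a2, the heavy chain that Slc7a5 needs at the surface, had 7052, 7109 and 7018 normalized counts at 10 µM, against 14307, 14255 and 14536 at 200 µM (log2 difference −1.02, SE 0.0282, adjusted p = 2.34e-27). Slc7a5, the exchanger of large neutral amino acids that imports methionine, had 1508, 1419 and 1444 normalized counts at 10 µM, against 2481, 2427 and 2547 at 200 µM (log2 difference −0.77, SE 0.0344, adjusted p = 8.53e-21). Both were lower in every 10 µM library. In the opposite direction, Slc43a2, a facilitative carrier of the same amino acids, had 833, 747 and 742 normalized counts at 10 µM, against 498, 453 and 426 at 200 µM (log2 difference 0.75, SE 0.0903, adjusted p = 3.99e-09), and Slc7a7, the partner of Slc3a2 for cationic and neutral amino acids, rose to 141 ± 4.73 normalized counts at 10 µM and 45.7 ± 6.58 at 200 µM (SD, n = 3 each; log2 1.61). The groups did not overlap for either. Slc7a6 and Slc3a1 did not pass the test (adjusted p = 0.488 and 0.993).

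Of 11 other amino acid carriers, 9 were lower and 1 higher, with a median of −1.01. The glycine carrier Slc6a9 had 106, 109 and 113 normalized counts at 10 µM, against 682, 638 and 672 at 200 µM (log2 difference −2.59, SE 0.0745, adjusted p = 8.95e-27). The cystine exchanger Slc7a11 was lower by 3.25-fold in its means, the neutral amino acid carriers Slc1a5, Slc1a4 and Slc38a2 by 2.45-, 2.35- and 2.01-fold and the arginine carrier Slc7a1 by 2.21-fold. The member that rose was Slc36a1, a lysosomal proton-coupled carrier (log2 0.56).

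ATF4 and its targets gave the most uniform pattern of the comparison. All 42 tested members of the list were lower at 10 µM, none was higher, and 25 of them fell at least 2-fold, with a list median of −1.11. Atf4 itself had 2025, 2030.3 and 1959 normalized counts at 10 µM, against 3529.5, 3505 and 3440.5 at 200 µM (log2 difference −0.80, SE 0.0352, adjusted p = 5.39e-21). As background, amino acid shortage is known to raise these transcripts; here all were lower in the libraries labelled 10 µM, and the labels are used as deposited. All 42 were called lower under each of the alternative settings run. The list was written with earlier results of these data known, and how far the choice of members shaped this count was not tested.

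Trib3, a pseudokinase that ATF4 induces and that feeds back on it, had 186, 196 and 193 normalized counts at 10 µM, against 1824, 1881 and 1881 at 200 µM (log2 difference −3.27, SE 0.0484, adjusted p = 1.22e-35). Asns, asparagine synthetase, had 1866, 1848 and 1861 normalized counts at 10 µM, against 3877, 3979 and 3951 at 200 µM (log2 difference −1.08, SE 0.0319, adjusted p = 1.92e-26). Neither gene's groups overlapped, and the means lay 9.70- and 2.12-fold apart. Chac1, which degrades glutathione, had 218, 176 and 235 normalized counts at 10 µM, against 1499.6, 1368 and 1485 at 200 µM (log2 difference −2.80, SE 0.0889, adjusted p = 2.14e-25). Pycr1, the last enzyme of proline synthesis, had 94.9, 98.7 and 113 normalized counts at 10 µM, against 904, 920.0 and 911 at 200 µM (log2 difference −3.15, SE 0.0662, adjusted p = 4.75e-31). Aldh18a1, which starts proline synthesis, went the same way (log2 −1.84). Among regulators, Atf5 and Atf3, transcription factors downstream of ATF4, were lower (log2 −1.92 and log2 −1.39), as was Ddit3, the stress factor CHOP (log2 −1.16). The translation repressor Eif4ebp1, a known ATF4 target, was lower as well (log2 −1.50), and so was Ddit4, an inhibitor of mTORC1 (log2 −0.72). The smallest falls in the list were of the alanine synthetase gene Aars (log2 −0.29) and of Rhbdd1 (log2 −0.37), named here as the last of the ordered list.

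Promoter windows from RefSeq (mouse build GRCm38.p6, 250 bases before to 50 after the start) were searched on both strands for the letters TGATGNAA, the core of the element known to bind ATF4 with C/EBP partners. A match was present in 12 of the 37 lower ATF4-list genes that had a window (32.4%), against 1219 of all 27025 genes with a window (4.51%). A match describes letters, not binding. The list was chosen as ATF4 targets, so a high share of this element can follow from the choice of genes alone. All tested members were lower, so no unchanged members could be compared, and the share does not bear on the methionine response. Stretches of 150 bases are shown for 4 members because they differ in where the letters fall, with each match in capitals and each stretch printed on the gene's own strand. Trib3 (chr2:152344036-152344185, minus strand) has it at 15 to 22 bases after the start, Asns (chr6:7693185-7693334, minus strand) at 23 to 16 bases before the start, Slc7a11 (chr3:50443589-50443738, minus strand) has it in opposite orientations at 66 to 59 and 47 to 40 bases before the start, and Chac1 (chr2:119351017-119351166, plus strand) at 193 to 186 bases before the start.
Trib3: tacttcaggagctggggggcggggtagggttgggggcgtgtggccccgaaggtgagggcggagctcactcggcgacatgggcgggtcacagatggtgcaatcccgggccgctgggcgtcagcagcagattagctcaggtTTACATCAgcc
Asns: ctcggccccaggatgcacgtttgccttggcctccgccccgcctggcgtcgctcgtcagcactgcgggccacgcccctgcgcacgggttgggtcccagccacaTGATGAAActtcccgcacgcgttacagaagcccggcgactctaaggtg
Slc7a11: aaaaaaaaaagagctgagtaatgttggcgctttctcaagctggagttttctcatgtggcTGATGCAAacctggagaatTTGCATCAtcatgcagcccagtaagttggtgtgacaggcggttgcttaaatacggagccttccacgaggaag
Chac1: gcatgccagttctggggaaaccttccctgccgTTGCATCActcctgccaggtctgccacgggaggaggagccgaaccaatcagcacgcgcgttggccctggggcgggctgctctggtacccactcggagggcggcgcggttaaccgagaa

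**Figure D3:**
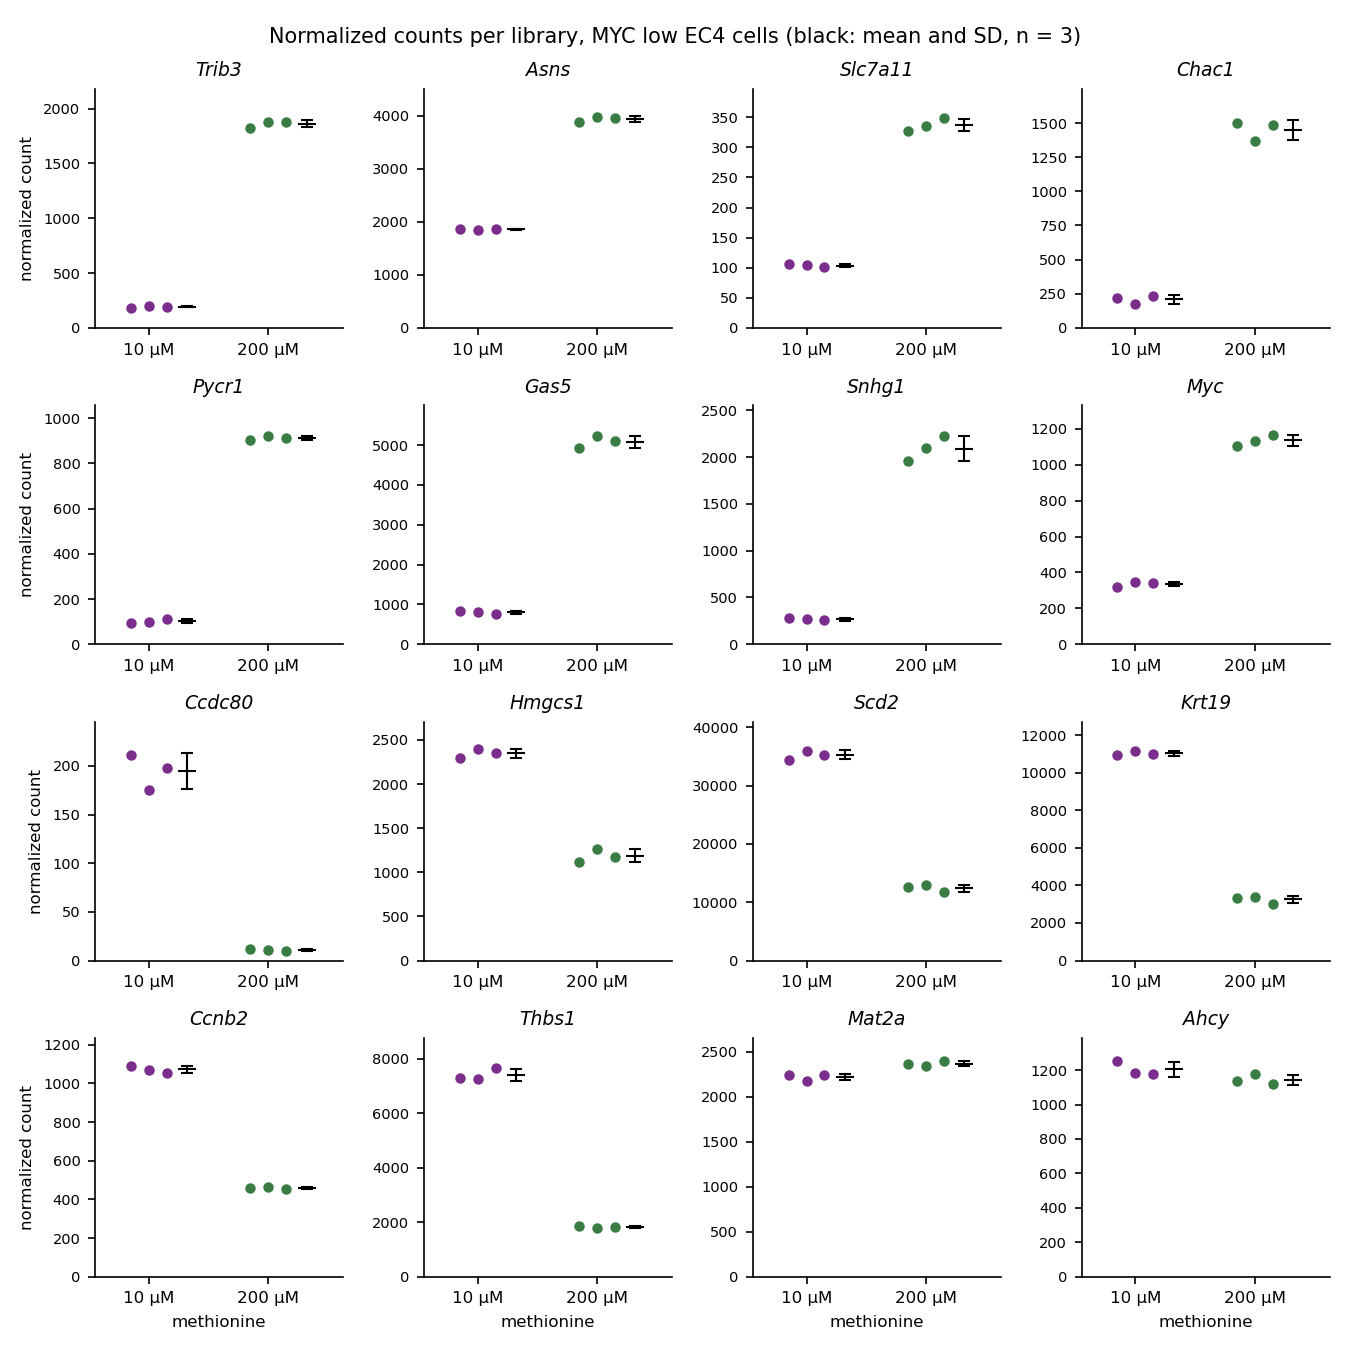
Normalized counts of 16 genes in each MYC low library, 1 panel per gene, with the 3 libraries at 10 µM left of the 3 at 200 µM, and bars for the mean and SD. For Trib3 the 10 µM libraries lie between 186 and 196 and the 200 µM libraries between 1824 and 1881, while for Ahcy the groups overlap.

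Some synthetases and folate enzymes are also members of the ATF4 list. Of 20 cytosolic aminoacyl-tRNA synthetases, which charge transfer RNAs, 15 were lower and 3 higher (median −0.41). The tryptophan enzyme Wars fell most, to 1282 ± 25.1 normalized counts at 10 µM and 3298 ± 58.7 at 200 µM (SD, n = 3 each; log2 difference −1.36, SE 0.0364, adjusted p = 9.24e-28), followed by the leucine and tyrosine enzymes Lars (log2 −1.04) and Yars (log2 −0.97). The asparagine, serine and combined glutamate and proline enzymes Nars, Sars and Eprs were lower by 1.67-, 1.65- and 1.65-fold. The lysine, glutamine and histidine enzymes Kars, Qars and Hars rose (log2 0.18, log2 0.31 and log2 0.35). The methionine enzyme Mars was lower (log2 −0.39), and is named here for its amino acid.

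In the list of serine synthesis and folate metabolism more members fell than rose. Of 25 tested members, 12 were lower and 4 higher, and 9 did not pass the test. Mthfd2, the mitochondrial folate dehydrogenase, had 852, 788 and 809.5 normalized counts at 10 µM, against 3303, 3333 and 3331 at 200 µM (log2 difference −2.02, SE 0.0373, adjusted p = 1.04e-32). Shmt2, the mitochondrial enzyme that moves carbon from serine to folate, averaged 849 ± 22.4 normalized counts at 10 µM and 2805 ± 115 at 200 µM (SD, n = 3 each; log2 difference −1.72, SE 0.0365, adjusted p = 5.49e-31). The serine synthesis enzymes Phgdh, Psat1 and Psph fell by 1.60-, 1.33- and 2.43-fold. Mthfd1, the cytosolic counterpart of Mthfd2, rose (1604, 1660.3 and 1706 normalized counts at 10 µM, against 1008, 1098 and 1028 at 200 µM; log2 difference 0.67, SE 0.0416, adjusted p = 1.76e-16), with Gart of purine synthesis (log2 0.23) and Mthfd2l, a mitochondrial relative of Mthfd2 (log2 0.38). Aldh1l1, which oxidises formyl-folate, was at 27.1, 20.9 and 21.2 normalized counts at 10 µM, against 0, 0 and 4.84 at 200 µM, close to the limit of detection in the 200 µM libraries (log2 difference 3.73, SE 0.611, adjusted p = 2.05e-06). No group overlapped for Mthfd2, Shmt2 or Mthfd1. Aldh1l1, counted among the 4 higher members, passed the filter on counts only through its 10 µM libraries. The filter thus favoured its call, which adds no support.

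Regulators of mTORC1 had no common direction, with 10 of 33 higher and 11 lower. Deptor, an inhibitor of mTOR, was lower (55.5 ± 5.26 normalized counts at 10 µM and 127 ± 14.0 at 200 µM, SD, n = 3 each; log2 −1.18), as were Fnip1, a partner of folliculin (log2 −0.60), Akt1s1, an inhibitor within mTORC1 (log2 −0.41), and Rheb, its activating GTPase (log2 −0.38). Castor1, an arginine sensor (log2 0.43), Sesn3 of the sestrin family (log2 0.42), and Depdc5 and Nprl3 of GATOR1, the complex that turns mTORC1 off when amino acids are short, were higher (log2 0.42 and log2 0.27). The kinase genes Mtor and Eif2ak4, the gene of GCN2, did not pass the test (adjusted p = 0.161 and 0.377).

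The mouse Myc transcript was lower at low methionine although both groups carry the MYC off label. It had 320.0, 344 and 342 normalized counts at 10 µM, against 1106, 1133 and 1168 at 200 µM (log2 difference −1.76, SE 0.0625, adjusted p = 7.64e-24), a 3.38-fold gap between means with no overlap. The sources used here do not say whether reads of a MYC transgene would fall on this gene. In the rest of the MYC network, 5 of 13 members were higher and 5 lower, Myc included. The MAX partners were split: Mxd4 (log2 0.89) and Mxd3 (log2 0.67) rose, while Mnt (log2 −0.85), Mxi1 (log2 −0.81) and Mga (log2 −0.21) fell. Mlx, another member of the network, rose (log2 0.60). Max did not pass the test (adjusted p = 0.126). The fall of Mga was lost with DESeq2 (adjusted p = 0.056).

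Of 52 canonical MYC targets, 29 were lower and 15 higher (median −0.17). Among the lower targets were nucleolar proteins: Ncl, nucleolin, averaged 10385 ± 79.7 normalized counts at 10 µM and 15953 ± 307 at 200 µM (SD, n = 3 each; log2 difference −0.62, SE 0.0272, adjusted p = 5.43e-21), Npm1, nucleophosmin, was lower (log2 −0.73), and so were Tcof1, Nop56 and Nop58 (log2 −1.05, log2 −0.91 and log2 −0.89). The cyclin Ccnd2 (log2 −0.87) and the histone chaperone Set (log2 −0.79) fell too. The targets that rose included Ldha, lactate dehydrogenase (14225, 14034 and 14032 normalized counts at 10 µM, against 5201, 5361 and 5280.3 at 200 µM; log2 difference 1.42, SE 0.0266, adjusted p = 1.61e-32), the RNA-binding protein Ybx1 (log2 0.80), the ribosome assembly factor Bop1 (log2 0.73) and the chaperonin subunit Cct3 (log2 0.38).

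Ribosomal protein genes fell almost as a block. Of 77 tested genes, 73 were lower and 3 higher, with a median log2 difference of −0.49. Rpl12 fell most, with 7156, 7158 and 6776 normalized counts at 10 µM, against 18306, 18130.0 and 18525 at 200 µM (log2 difference −1.38, SE 0.0309, adjusted p = 3.16e-30). Rpl37 (log2 −0.91), Rpl26 (log2 −0.88), Rpl3 (log2 −0.78) and Rpl23 (log2 −0.69) were among the members with the smallest p. Rpl7 (log2 0.10), Rpl15 (log2 0.15) and Rpl37a (log2 0.19) went against the rest by small amounts. Ribosomal protein genes have many processed pseudogenes, so reads of single members are uncertain, but the summed level of the list was 358359.6 to 366820.3 normalized counts at 10 µM and 506886 to 512328 at 200 µM. Of 45 translation factors, 29 were lower and 10 higher, led by Eif4ebp1 and by Eif1 (4134 ± 78.4 normalized counts at 10 µM and 9861 ± 188 at 200 µM, SD, n = 3 each; log2 −1.25), which selects the start codon. The subunit Eif3c (log2 −0.81), the anti-association factor Eif6 (log2 −0.66), the elongation factor Eef1b2 (log2 −0.57) and the poly(A)-binding protein Pabpc1 (log2 −0.47) were lower, and the helicase Eif4a1 (log2 0.26) and scaffold Eif4g1 (log2 0.20) of cap binding were higher.

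Host transcripts of small nucleolar RNAs were among the largest falls. Their list was added after values had been seen and has no test. Of 14 tested hosts, 11 were lower and 2 higher, with a median of −1.43, and their summed level was 3059 to 3171 normalized counts at 10 µM and 14356 to 15144 at 200 µM. Gas5 had 834, 805 and 759 normalized counts at 10 µM, against 4927, 5221 and 5100.3 at 200 µM (log2 difference −2.67, SE 0.0373, adjusted p = 3.42e-36). Snhg1 had 286, 266 and 256 normalized counts at 10 µM, against 1959, 2098 and 2221 at 200 µM (log2 difference −2.95, SE 0.0512, adjusted p = 1.73e-33). In both the groups did not overlap. These transcripts carry snoRNAs in their introns, and several are known to be degraded when translated. Several also begin with a run of pyrimidines, a feature known of ribosomal protein transcripts. Snhg3 and Snhg20 were higher (log2 1.01 and log2 0.71).

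Ribosome assembly factors fell by small amounts. Of 85 members, 58 were lower and 8 higher (median −0.20), and 2 fell at least 2-fold. They were Nop14, of the small subunit processome (813, 816 and 759 normalized counts at 10 µM, against 1755, 1748 and 1909 at 200 µM; log2 difference −1.18, SE 0.0427, adjusted p = 1.33e-23), and Tcof1, the rRNA transcription factor treacle, at 1097 ± 8.53 normalized counts at 10 µM and 2279 ± 62.9 at 200 µM (SD, n = 3 each). Bop1, of large subunit maturation, rose (939, 948 and 996 normalized counts at 10 µM, against 579, 568 and 588 at 200 µM; log2 difference 0.73, SE 0.046, adjusted p = 2.11e-16), as did Rrp1 (log2 0.46), Ddx47 (log2 0.30) and Emg1 (log2 0.29). RNA polymerase I and III genes showed 11 lower and 7 higher of 36, and 18 did not pass the test. The lower share, 30.6%, was near the 29.9% of all genes. Twistnb and Polr1c (both log2 −0.73) and the rDNA factor Ubtf (log2 −0.40) fell, while Gtf3c1 (log2 0.46) and Gtf3c4 (log2 0.32) rose. Among 76 mitochondrial ribosomal proteins, 28 were higher and 17 lower, from Mrpl14 (log2 0.91) to Mrps31 (log2 −1.05).

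Nop2, the RNA methyltransferase of the series title, places m5C, a methylated cytosine, in large subunit rRNA. It had 1083, 1092 and 1084 normalized counts at 10 µM, against 1206, 1182 and 1239 at 200 µM (log2 difference −0.15, SE 0.0395, adjusted p = 0.000983), so that its 10 µM libraries lay below its 200 µM libraries by a small margin. Of the 9 members of the family list, 3 were higher and 3 lower: Nsun2, which acts on transfer RNAs, fell (log2 −0.43), and the reader Ybx1 and the mitochondrial rRNA enzyme Nsun4 rose (log2 0.80 and log2 0.64). The calls of Nsun3 (log2 −0.18) and Trdmt1 (log2 0.51) were each lost without at least 1 library. In the list of m6A and cap methylation, 8 of 29 were higher and 13 lower; the cap methyltransferase Rnmt (log2 −0.46) and the reader Ythdc2 (log2 −0.66) fell, while the demethylase Alkbh5 (log2 0.41), the writer subunit Virma (log2 0.45) and the reader Igf2bp1 (log2 0.52) rose. DNA and histone methyltransferases had 10 higher and 13 lower of 35, with Setd7 at 1665 ± 54.4 normalized counts at 10 µM and 3384 ± 62.2 at 200 µM (SD, n = 3 each; log2 −1.02), Kmt2a at −0.44 and Dnmt3a and Dot1l both at 0.48 on the log2 scale. Of 9 protein arginine methyltransferases and partners, 5 were lower and 1 higher, and the lower ones were led by Prmt3, which acts on a ribosomal protein (log2 −0.69).

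Cholesterol synthesis rose through nearly the whole pathway. Of 22 enzymes, 20 were higher at 10 µM and none lower, with a median log2 difference of 0.76, and 7 rose at least 2-fold. The early enzyme Hmgcs1 had 2299, 2397 and 2352 normalized counts at 10 µM, against 1120.3, 1266 and 1179 at 200 µM (log2 difference 0.98, SE 0.042, adjusted p = 2.15e-21). The groups did not overlap. The thiolase Acat2 (log2 1.60), the phosphomevalonate kinase Pmvk (log2 1.47), the demethylase Cyp51 (log2 0.87) and the late reductase Dhcr7 (log2 1.19) rose, while Ggps1 and Lbr did not pass the test (adjusted p = 0.0534 and 0.128).

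Regulators of the pathway rose with it. Srebf2 and Srebf1, the transcription factors that drive sterol and fatty acid genes, averaged 2308 ± 71.8 normalized counts at 10 µM and 1023 ± 47.1 at 200 µM and 3069.6 ± 60.6 normalized counts at 10 µM and 1088 ± 37.6 at 200 µM (SD, n = 3 each; log2 1.17 and log2 1.50). Insig1, the feedback inhibitor of SREBP processing, had 568, 658 and 612 normalized counts at 10 µM, against 286, 230.2 and 239 at 200 µM (log2 difference 1.28, SE 0.0665, adjusted p = 7.48e-19), with no overlap of the groups, and Stard4, a sterol carrier, also rose (log2 1.16). In the whole list of SREBP regulation and sterol handling, 10 of 18 were higher and 5 lower. The protease Mbtps2 (log2 −0.35), the esterifying enzyme Soat1 (log2 −0.32) and the lysosomal cholesterol exporters Npc1 (log2 −0.28) and Npc2 (log2 −0.27) were lower.

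Of the 20 cholesterol genes that rose, 15 had a RefSeq promoter window. The letters CCAAT, which bind NF-Y, a common partner of SREBP, were found on either strand in 14 of the 15 (93.3%), against 11096 of 27025 genes with a window (41.1%). The letters TCACNCCAC, of the classical sterol element, were found in 1 of the 15 (6.67%), against 388 of all genes with a window (1.44%). The genes were chosen by pathway and members that did not rise were not searched, so these shares do not bear on the methionine response. The member with the sterol element is Hmgcs1 (chr13:119690201-119690350, plus strand), shown with that match and an inverted CCAAT in capitals. Idi1, an isomerase of the pathway (log2 1.52; chr13:8885481-8885630, plus strand), is shown beside it for its pair of inverted CCAAT matches, and was chosen after its values were seen.
Hmgcs1: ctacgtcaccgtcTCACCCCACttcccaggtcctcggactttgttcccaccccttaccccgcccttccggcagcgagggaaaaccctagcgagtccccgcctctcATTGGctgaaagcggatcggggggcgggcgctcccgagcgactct
Idi1: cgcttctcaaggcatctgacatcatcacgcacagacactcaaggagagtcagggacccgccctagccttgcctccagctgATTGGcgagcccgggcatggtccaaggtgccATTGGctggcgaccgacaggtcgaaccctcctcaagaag

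Fatty acid synthesis moved with the sterol genes. Of 26 members, 19 were higher and 2 lower (median 0.43). The desaturase Scd2 had 34482, 36022 and 35318 normalized counts at 10 µM, against 12621, 12911 and 11717 at 200 µM (log2 difference 1.51, SE 0.03, adjusted p = 9.87e-32), and its relative Scd1 averaged 30710.1 ± 953 normalized counts at 10 µM and 22560.4 ± 649 at 200 µM (SD, n = 3 each; log2 0.44). The desaturases Fads2 and Fads1 rose (log2 1.38 and log2 0.55), with the synthase Fasn (log2 0.79) and the acyltransferase Agpat3 (log2 0.69). Lpin2, a phosphatidate phosphatase, and Dgat1, which makes triglyceride, fell (log2 −0.53 and log2 −0.28). Enzymes of fatty acid oxidation also rose, 13 of 22, with 1 lower: Acadm, the dehydrogenase for medium chains, averaged 5024 ± 107 normalized counts at 10 µM and 2659 ± 57.8 at 200 µM (SD, n = 3 each; log2 difference 0.92, SE 0.0346, adjusted p = 4.32e-23), and Cpt1a, which admits acyl groups to mitochondria, rose (log2 0.60). The fall of Hadha (log2 −0.08) was lost without 5 of the 6 libraries, with DESeq2, with a filter at a mean of 1 and under scaling by library totals.

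Glycolysis rose in 17 of 22 members, with 1 lower (median 0.48). Besides Ldha, given above, Pfkl, the liver phosphofructokinase, had 2475, 2564 and 2499 normalized counts at 10 µM, against 1481, 1456 and 1438 at 200 µM (log2 difference 0.78, SE 0.0332, adjusted p = 1.69e-21). The pyruvate kinase Pkm (log2 0.63), the triose isomerase Tpi1 (log2 0.53), the enolase Eno1 (log2 0.51) and Gapdh (log2 0.47) followed, and hexokinase Hk2 was lower (log2 −0.33). Targets of hypoxia outside glycolysis did not move with them: 10 of 28 were higher and 13 lower. Vegfa, the angiogenic growth factor, fell, with 434, 364 and 423 normalized counts at 10 µM, against 1796, 1766 and 1758 at 200 µM (log2 difference −2.12, SE 0.0505, adjusted p = 2.10e-29). Hilpda, of lipid droplets (log2 −1.49), the oxidoreductase Ero1l (log2 −1.08) and Ndrg1 (log2 −0.89) fell, while Egln3, the prolyl hydroxylase of HIF, and the mitophagy receptor Bnip3 rose (log2 1.09 and log2 0.53). Hif1a did not pass the test (adjusted p = 0.286).

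The respiratory chain had 26 of 56 nuclear genes higher and 13 lower, with a median of 0.10. Cox7a2, a subunit of cytochrome oxidase (log2 0.89), and Ndufa8 of complex I (log2 0.70) rose, and Uqcrq of the cytochrome bc complex was lower (1837, 1759 and 1651 normalized counts at 10 µM, against 3558, 3701 and 3557 at 200 µM; log2 difference −1.04, SE 0.0402, adjusted p = 8.93e-23). Of 8 tested mitochondrial messenger RNAs, 4 were lower, among them mt-Co1 (log2 −0.25) and mt-Nd4 (log2 −0.28), and none was higher. In nucleotide synthesis 14 of 40 were higher and 18 lower. Prps2, which makes the ribose donor, rose (3449, 3445 and 3327 normalized counts at 10 µM, against 1447, 1426 and 1468 at 200 µM; log2 difference 1.23, SE 0.0419, adjusted p = 1.62e-24), Ak1, an adenylate kinase, rose (log2 0.60), and the uridine kinase Uck2 and the purine enzyme Paics fell (log2 −0.49 and log2 −0.25).

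Genes of mitosis and genes of DNA replication went in opposite directions. Of 53 mitotic genes, 43 were higher at 10 µM and 7 lower, with a median of 0.41. Of 44 replication genes, 31 were lower and 5 higher, with a median of −0.28. Ccnb2, cyclin B2, had 1091, 1069 and 1056 normalized counts at 10 µM, against 461, 465 and 454 at 200 µM (log2 difference 1.22, SE 0.0553, adjusted p = 1.35e-20). Plk1, the polo kinase, averaged 1046 ± 77.4 normalized counts at 10 µM and 432 ± 40.4 at 200 µM, and the cytokinesis kinesin Kif20a 1800.2 ± 78.8 normalized counts at 10 µM and 740.2 ± 42.1 at 200 µM (SD, n = 3 each; log2 1.28 and log2 1.28). Mki67, the proliferation marker Ki-67, had 3837, 3733 and 3992 normalized counts at 10 µM, against 1952, 1809 and 1707 at 200 µM (log2 difference 1.08, SE 0.0481, adjusted p = 7.72e-21), and Cenpf and Hmmr, of kinetochore and spindle, rose as well (log2 0.88 and log2 0.79). No groups overlapped among these. The kinetochore gene Ndc80 (log2 −0.50), with Dlgap5 (log2 −0.19), Ect2 (log2 −0.16) and Smc2 (log2 −0.16), went the other way.

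On the replication side, Cdt1, the licensing factor that loads the helicase, had 492, 466 and 468 normalized counts at 10 µM, against 1312, 1313 and 1362 at 200 µM (log2 difference −1.48, SE 0.0428, adjusted p = 1.02e-26). The helicase subunits Mcm2, Mcm3, Mcm4 and Mcm7 were lower by log2 −0.68, −0.72, −0.70 and −0.65, and the sliding clamp Pcna by 1.45-fold (log2 −0.53). Every 10 µM library was below every 200 µM library for these. Fen1, the flap nuclease (log2 0.60), Rfc5 and Rfc2 of the clamp loader (log2 0.51 and log2 0.31) and Pola2 of the polymerase alpha and primase complex (log2 0.49) were higher. Cdkn2d, an inhibitor of CDK4 and CDK6, rose (281, 259 and 281 normalized counts at 10 µM, against 119, 103 and 128 at 200 µM; log2 difference 1.23, SE 0.102, adjusted p = 4.47e-13), with Cdkn2a (log2 0.60) and Cdk6 itself (log2 0.49), while Ccnd2, the antiproliferative gene Btg1 (log2 −1.14), Cdkn1b (log2 −0.34) and Cdk4 (log2 −0.34) fell. In all, 11 of 28 genes of the G1 list were higher and 9 lower. Cell numbers and cycle phases were not analysed here.

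**Figure D4:**
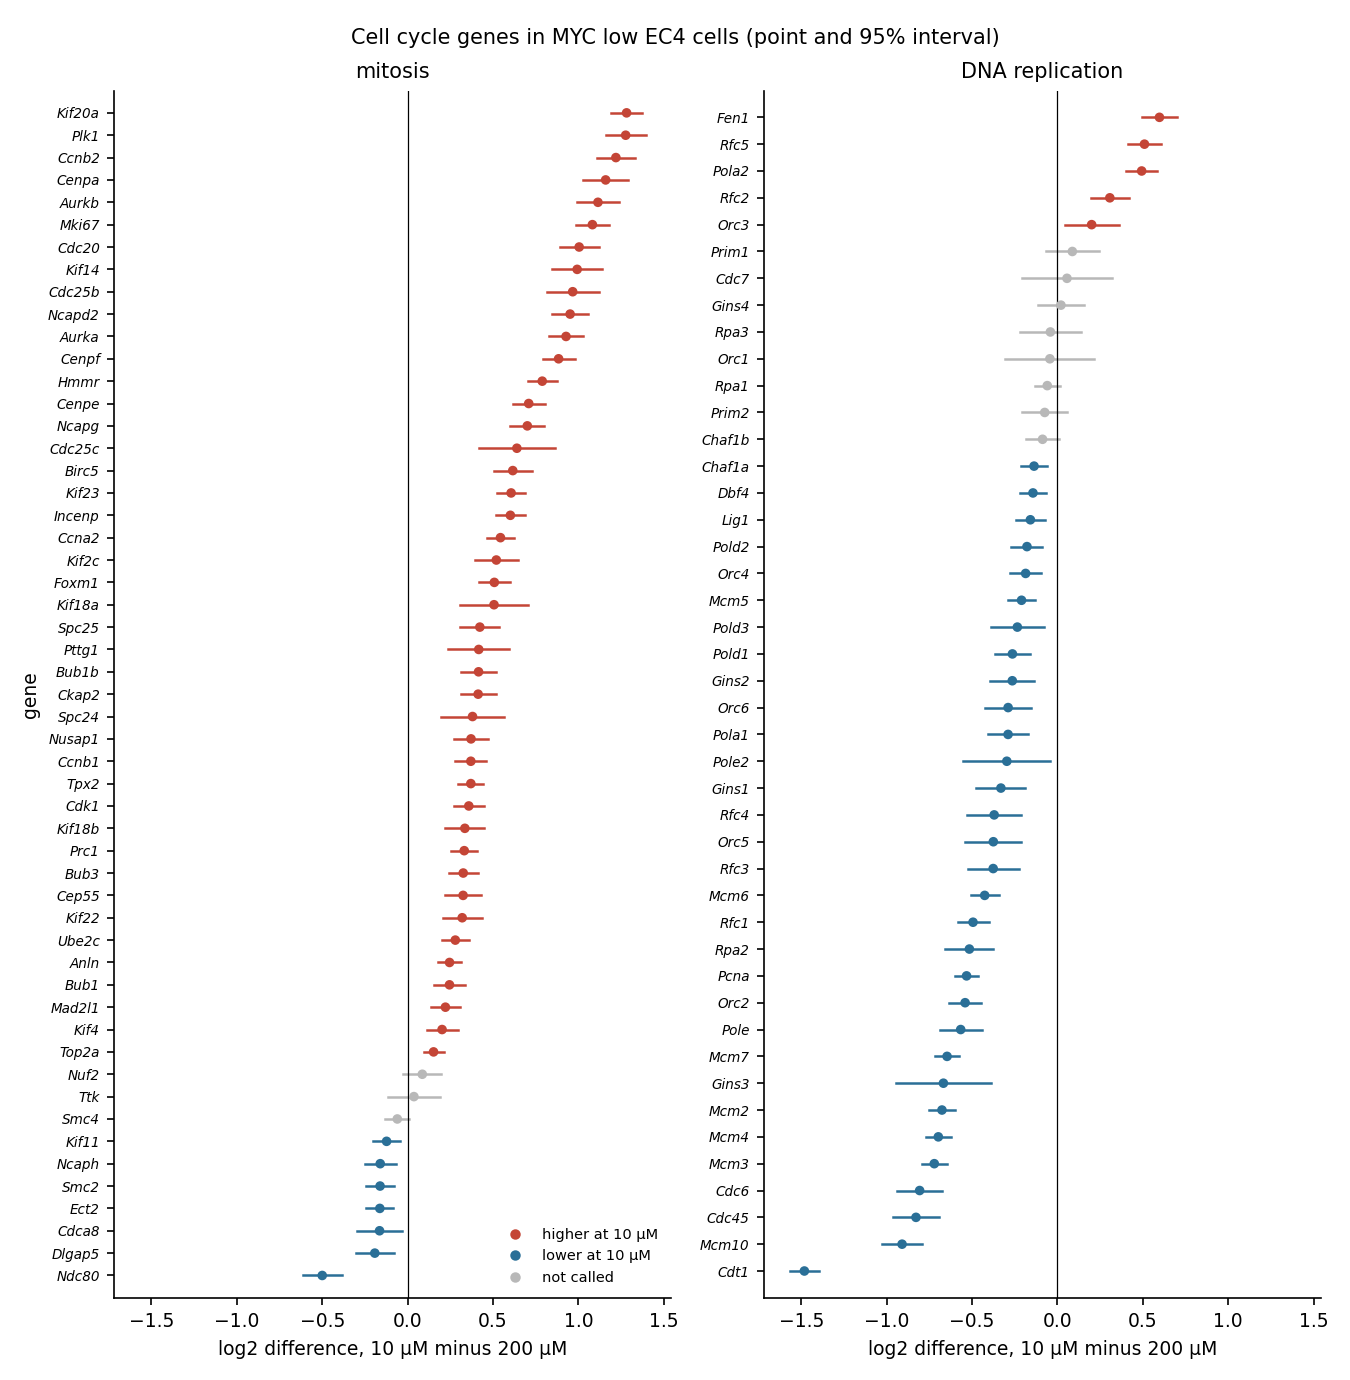
Log2 difference (10 µM minus 200 µM methionine, with 95% interval) of each member of the mitosis and DNA replication lists, in order of size. Mitosis members lie mostly above 0 (median 0.41) and replication members mostly below 0 (median −0.28).

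Of the 43 mitotic genes that rose, 35 had a promoter window. The letters TTTGAA are the cell cycle homology region known to be bound by the DREAM and MMB complexes. On either strand they were found in 26 of the 35 (74.3%), against 5466 of 27025 genes with a window (20.2%). CCAAT was found in 27 (77.1%), against 41.1%. Both were present in 23 of the 35 (65.7%), against 2155 of all genes with a window (7.97%). The genes were chosen by function and members that did not rise were not searched, so these shares do not bear on the methionine response. The windows of Ccnb2 (chr9:70421530-70421679, minus strand) and Cenpa, the centromeric histone (log2 1.16; chr5:30666761-30666910, plus strand), are shown because the spacing of the 2 kinds of letters can be seen in them, and Cenpa was chosen after its values were seen. Capitals mark CCAAT on either strand and TTTGAA, which begins 5 bases after the start in Ccnb2 and 17 after it in Cenpa.
Ccnb2: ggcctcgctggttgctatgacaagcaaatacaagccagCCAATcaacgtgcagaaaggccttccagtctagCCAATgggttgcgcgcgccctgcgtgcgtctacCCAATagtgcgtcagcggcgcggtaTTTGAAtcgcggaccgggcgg
Cenpa: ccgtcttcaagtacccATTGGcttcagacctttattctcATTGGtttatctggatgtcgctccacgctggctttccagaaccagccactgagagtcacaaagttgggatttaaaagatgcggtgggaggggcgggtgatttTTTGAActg

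Genes of the unfolded protein response moved in both directions. All 30 tested members changed, 20 higher and 10 lower. Herpud1, of degradation from the endoplasmic reticulum, fell (233, 228 and 272 normalized counts at 10 µM, against 663, 626 and 671 at 200 µM; log2 difference −1.42, SE 0.0667, adjusted p = 3.73e-20), as did Ddit3, the sensor Ern1 (log2 −0.84) and the chaperone Hyou1 (log2 −0.41). Hsp90b1, the main chaperone of that family in the endoplasmic reticulum, rose (7163, 7108 and 7233 normalized counts at 10 µM, against 4454, 4747 and 4532 at 200 µM; log2 difference 0.65, SE 0.0304, adjusted p = 3.76e-20), with the calcium-binding chaperone Calr (log2 0.64) and the disulphide isomerases P4hb and Pdia3 (log2 0.45 and log2 0.37). Of 22 heat shock chaperones, 11 were higher and 5 lower. Hspa9, the mitochondrial form of HSP70, averaged 8831 ± 281 normalized counts at 10 µM and 19511 ± 371 at 200 µM (SD, n = 3 each; log2 difference −1.14, SE 0.0289, adjusted p = 1.43e-28), and the cytosolic Dnaja1 and Hsph1 rose (log2 0.52 and log2 0.51).

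Antioxidant genes were mostly higher. Of 36 members of the NRF2 and glutathione list, 23 were higher and 7 lower (median 0.25). Prdx1, a peroxiredoxin, had 7085, 7305 and 6996 normalized counts at 10 µM, against 3951, 3971 and 3997 at 200 µM (log2 difference 0.84, SE 0.0307, adjusted p = 1.48e-23), and the pentose phosphate enzymes Pgd and Tkt rose (log2 0.87 and log2 0.70), with the glutathione transferase Gsta4 (log2 0.67). The selenoprotein genes Txnrd1, thioredoxin reductase, and Gpx4, which reduces lipid peroxides, fell (log2 −0.70 and log2 −0.49). The largest change in the list was the fall of Chac1, given above (log2 −2.80). At least 2-fold changes were found for 2 members lower and 1 higher.

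Among 33 targets of p53, 16 were lower and 9 higher. After Gadd45a, the largest falls by p were of Pmaip1, the death factor NOXA (log2 −0.76), Mdm2, the ligase for p53 (log2 −0.52), and the polo-like kinase Plk3 (log2 −0.67). Fas, the death receptor, rose (246, 257 and 251 normalized counts at 10 µM, against 99.5, 137 and 112 at 200 µM; log2 difference 1.12, SE 0.115, adjusted p = 1.26e-10), with the cyclin G gene Ccng1 (log2 0.44), Btg2 (log2 0.44) and Ei24 (log2 0.40). Trp53 did not pass the test (adjusted p = 0.0522). Immediate early genes were lower in 15 of 26 and higher in 5. The phosphatase Dusp4 (log2 −1.26) and the AP-1 genes Fosl1 and Junb (log2 −1.09 and log2 −0.64) fell with Ier5 (log2 −0.61), and Egr1, an early growth response factor, rose (1363, 1447 and 1531 normalized counts at 10 µM, against 964, 970.1 and 945 at 200 µM; log2 difference 0.59, SE 0.0708, adjusted p = 4.08e-09), with the survival gene Mcl1 (log2 0.44) and Zfp36, which destabilises transcripts (log2 0.51).

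Keratins and junction genes rose. Of 26 tested, 16 were higher and 6 lower (median 0.35), and 7 rose at least 2-fold. Krt19, a keratin of bile duct cells, had 10945, 11160.1 and 10973 normalized counts at 10 µM, against 3349, 3371 and 3034 at 200 µM (log2 difference 1.76, SE 0.0353, adjusted p = 1.06e-31), its partner Krt8 averaged 14116 ± 178 normalized counts at 10 µM and 5488 ± 79.8 at 200 µM (SD, n = 3 each; log2 1.36), and Krt7 rose too (log2 2.14). The polarity gene Llgl2 was higher (log2 0.89). N-cadherin, Cdh2, was lower (2258, 2326 and 2245 normalized counts at 10 µM, against 3919.5, 3894 and 3786 at 200 µM; log2 difference −0.76, SE 0.0362, adjusted p = 4.94e-20), with Cldn12 (log2 −0.60), the junctional adhesion gene F11r (log2 −0.45) and Pard3 (log2 −0.43). E-cadherin, Cdh1, and Epcam had no read.

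Matrix genes rose in 13 of 29 tested and fell in 6. Thbs1, thrombospondin, known both as a matrix protein and as an activator of latent TGF-beta, had 7300.1, 7243 and 7679 normalized counts at 10 µM, against 1858, 1797 and 1843 at 200 µM (log2 difference 2.01, SE 0.0669, adjusted p = 8.68e-25). Sparc (log2 1.11), the collagen Col5a1 (log2 1.03) and the integrin Itgb3 (log2 1.55) rose, and Fbln2, Itgb5 and Itgav fell (log2 −0.84, log2 −0.69 and log2 −0.35). The TGF-beta list fell instead, with 27 of 41 members lower and 6 higher (median −0.31). Smad7, a feedback inhibitor of the pathway, had 482, 478 and 504 normalized counts at 10 µM, against 957, 937 and 1062 at 200 µM (log2 difference −1.01, SE 0.064, adjusted p = 2.45e-16). The feedback inhibitor Skil (log2 −0.99) and Id3 (log2 −0.67) fell with it, while the receptor Tgfbr2 (log2 0.79), the latency protein Ltbp3 (log2 0.37) and Ccn1 (log2 0.48) rose.

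Clock genes were mostly lower, 12 of 18, with 1 higher (median −0.42). Ciart, a repressor of the clock, had 16.3, 9.49 and 10.6 normalized counts at 10 µM, against 115, 122 and 146 at 200 µM (log2 difference −3.32, SE 0.169, adjusted p = 4.08e-19). The nuclear receptor Nr1d2 (log2 −1.13), the repressor Cry1 (log2 −1.12), the factor Nfil3 (log2 −0.92) and Clock itself (log2 −0.48) fell. The rise of the kinase Csnk1d (log2 0.08) was lost when any of 5 libraries was left out. The labels used here give no time of day for harvest.

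Degradation systems differed by kind. Lysosomal genes were lower in 29 of 54 and higher in 14 (median −0.20): the progranulin gene Grn had 8548, 8446 and 8404 normalized counts at 10 µM, against 13554, 13387 and 13466 at 200 µM (log2 difference −0.67, SE 0.0284, adjusted p = 1.73e-21), and the hydrolases Asah1 and Gaa, the membrane protein Scarb2 and the tetraspanin Cd63 fell (log2 −0.68, log2 −0.72, log2 −0.64 and log2 −0.59). Subunits of the proton pump Atp6v1b2, Atp6v1e1 and Atp6v0a1 rose (log2 0.48, log2 0.43 and log2 0.42), as did Tfeb, the lysosomal transcription factor (log2 0.79). Autophagy genes were lower in 17 of 40 and higher in 8, led by the cargo receptor Sqstm1 (15131, 14947 and 14948 normalized counts at 10 µM, against 36206, 36013 and 36849.6 at 200 µM; log2 difference −1.28, SE 0.0274, adjusted p = 7.75e-31) and by Gabarapl1 of the ATG8 family (log2 −0.84), while the processing enzymes Atg4a and Atg3 rose (log2 0.89 and log2 0.65). Of 40 proteasome genes, 22 were higher and 10 lower: the core subunits Psma4 and Psma2 and the assembly factor Pomp rose (log2 0.70, log2 0.69 and log2 0.69), and the lid subunit Psmd8 and Nfe2l1, which drives proteasome genes, fell (log2 −0.44 and log2 −0.35).

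Interferon genes passed the filter on counts in 21 of 42 cases, so that the rest of the pathway is not described by the calls. Of the 21, 8 were higher and none was lower. Samd9l, a growth-restricting interferon target, had 1659, 1714 and 1726 normalized counts at 10 µM, against 455, 517 and 466 at 200 µM (log2 difference 1.83, SE 0.0722, adjusted p = 1.97e-22), and Eif2ak2, a kinase that senses viral RNA, Stat2 and Lgals3bp rose (log2 0.73, log2 0.48 and log2 0.68). In MHC class I presentation 9 of 17 were higher and 2 lower, with B2m at 0.18, the peptide transporter Tap1 at 0.43 and Tapbpl at −0.84 on the log2 scale. Iron genes were higher in 10 of 16 and lower in 5: the ferroxidase Cp had 4565, 4839.6 and 4855 normalized counts at 10 µM, against 2349, 2508 and 2366 at 200 µM (log2 difference 0.98, SE 0.0454, adjusted p = 2.36e-20), the exporter Slc40a1 rose (log2 0.83) and the importer Slc39a14 fell (log2 −0.69).

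Cell identity was checked with marker lists. Of 28 hepatocyte markers, 3 passed the filter and 16 had no read, among them Alb, albumin, for which a count of 0 allows up to 3 reads per library (2.65 to 3.07 normalized counts). The summed level of the list was 679 to 695 normalized counts at 10 µM and 497 to 575 at 200 µM, most of it Ass1, of the urea cycle, which rose (log2 0.31). The transcription factor Cebpa rose (log2 1.73). The other 25 of the 28 did not pass the filter, and the labelled tissue is liver. Fetal liver and progenitor markers passed the filter in 8 of 14 cases, with 5 higher and 2 lower. Afp, alpha-fetoprotein, had 118, 127 and 146 normalized counts at 10 µM, against 78.0, 106 and 83.2 at 200 µM (log2 difference 0.55, SE 0.113, adjusted p = 7.44e-05), and Spp1, osteopontin, averaged 24366 ± 337 normalized counts at 10 µM and 16937 ± 302 at 200 µM (SD, n = 3 each; log2 0.52), while Sox4 and Sox9 were lower (log2 −0.43 and log2 −0.74). Of 10 cholangiocyte markers, 5 passed the filter, with 3 higher (Krt7, Krt19 and Spp1) and 1 lower (Sox9). Their summed level was 36904 to 37544 at 10 µM and 21921 to 22175 at 200 µM, most of it Spp1 and Krt19, and Epcam had no read.

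Lists for fibroblasts, endothelial cells and leukocytes held markers that were at or near 0 beside others that were expressed. Pecam1, Cdh5 and Ptprc, which define endothelial cells and leukocytes, averaged under 2 normalized counts in each medium, and Col3a1, Dcn and Lum of fibroblasts had no read. Of 16 fibroblast markers 3 passed the filter and rose, namely Vim (log2 0.42), Fn1 (log2 0.20) and Tagln (log2 0.85). The calls of Fn1 and Tagln were each lost without either of 2 libraries, replicate 3 at 10 µM for both, replicate 3 at 200 µM for Fn1 and replicate 1 at 200 µM for Tagln. Of 12 endothelial markers 2 passed it, with Eng higher (log2 0.72) and Flt1 lower (log2 −1.26). Of 14 leukocyte markers 4 passed it, and S100a8 (342, 348 and 355 normalized counts at 10 µM, against 93.6, 73.7 and 106 at 200 µM; log2 1.94), Cd68 (log2 1.19) and Csf1r (log2 0.82) rose while Cd14 did not pass the test (adjusted p = 0.145). The summed level was 35061 to 35423 at 10 µM and 26125 to 26973 at 200 µM for the fibroblast markers, of which Vim made up most, and 173 to 209 at 10 µM and 309 to 322 at 200 µM for the endothelial markers. For the leukocyte markers it was 1649.9 to 1755 at 10 µM and 1010.0 to 1070.4 at 200 µM. Their part in the results above was not tested.

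The methionine response of MYC low cells was finally set against that of MYC high cells, which shares no library with it. In MYC high cells 9731 of the 12849 tested genes changed. Most genes of any set would therefore be called there in 1 direction or the other, and the shares below are to be read against this. Of the genes that changed in MYC low cells, 5552 also changed in MYC high cells in the same direction, which is 72.6% of the MYC low calls and 57.1% of the MYC high calls, and 873 changed in opposite directions. Across the tested genes, which are not independent replicates, the responses had a Pearson r of 0.647 and a Spearman rho of 0.626. The SD of the log2 difference was 0.533 in MYC low and 0.939 in MYC high cells, and 4495 of the 5552 shared changes were smaller in MYC low cells. The difference of the responses (MYC low minus MYC high) passed limma's test for 7766 genes (60.4%), 3795 above 0 (29.5%) and 3971 below 0 (30.9%).

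The response was smaller in MYC low cells for Myc, Nop2, Mat2a and Slc3a2. Nop2 changed by log2 −0.15 in MYC low and −0.84 in MYC high cells (difference 0.68, SE 0.0592, adjusted p = 1.87e-12). Mat2a changed by −0.09 in MYC low and −0.90 in MYC high cells (difference 0.81, SE 0.0554, adjusted p = 3.48e-15). For Myc the responses were −1.76 in MYC low and −2.64 in MYC high cells, and for Slc3a2 −1.02 in MYC low and −2.00 in MYC high cells (differences 0.88 and 0.98, adjusted p = 2.85e-10 and 4.44e-21). The response was larger in MYC low cells for Trib3, at −3.27 in MYC low and −2.49 in MYC high cells (difference −0.78, adjusted p = 1.15e-11), for Asns, at −1.08 in MYC low and −0.50 in MYC high cells (difference −0.58, adjusted p = 4.64e-13), and for Slc7a5, at −0.77 in MYC low and −0.28 in MYC high cells (difference −0.49, adjusted p = 2.37e-10). Ahcy did not differ beyond its error (difference −0.04, SE 0.0588, adjusted p = 0.586).

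The genes with the largest differences between the responses came mostly from larger changes in MYC high cells. Cyp2s1, a cytochrome P450, rose in MYC low cells (339.9, 378 and 359.8 normalized counts at 10 µM, against 146, 149 and 152 at 200 µM) and rose further in MYC high cells (1025, 1139 and 1077 normalized counts at 10 µM, against 13.7 and 19.1 at 200 µM), with a difference of −4.71 (SE 0.145, adjusted p = 1.99e-25). Bnip3, a hypoxia target, changed by log2 0.53 in MYC low and 4.75 in MYC high cells (difference −4.22). Map2k6, a kinase of the p38 pathway, Gm45507 and the kinesin Kif21b had differences of −4.56, −4.47 and −3.63, and Kif21b did not pass the test in MYC low cells (log2 −0.06, adjusted p = 0.551). In the other direction Pmepa1, an inhibitor of TGF-beta signalling, had 295, 317 and 269 normalized counts at 10 µM, against 406, 397 and 468 at 200 µM in MYC low cells and 7.13, 5.06 and 4.05 normalized counts at 10 µM, against 210.2 and 187 at 200 µM in MYC high cells, a difference of 4.46 (SE 0.214, adjusted p = 1.07e-19). Sprr1a, an envelope protein of squamous cells, and the serpin gene Serpinb9d rose in MYC low cells and fell in MYC high cells (differences 3.19 and 3.27); both have close paralogs. Clstn2 and Elmod1 had differences of 3.41 and 2.86.

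**Figure D5:**
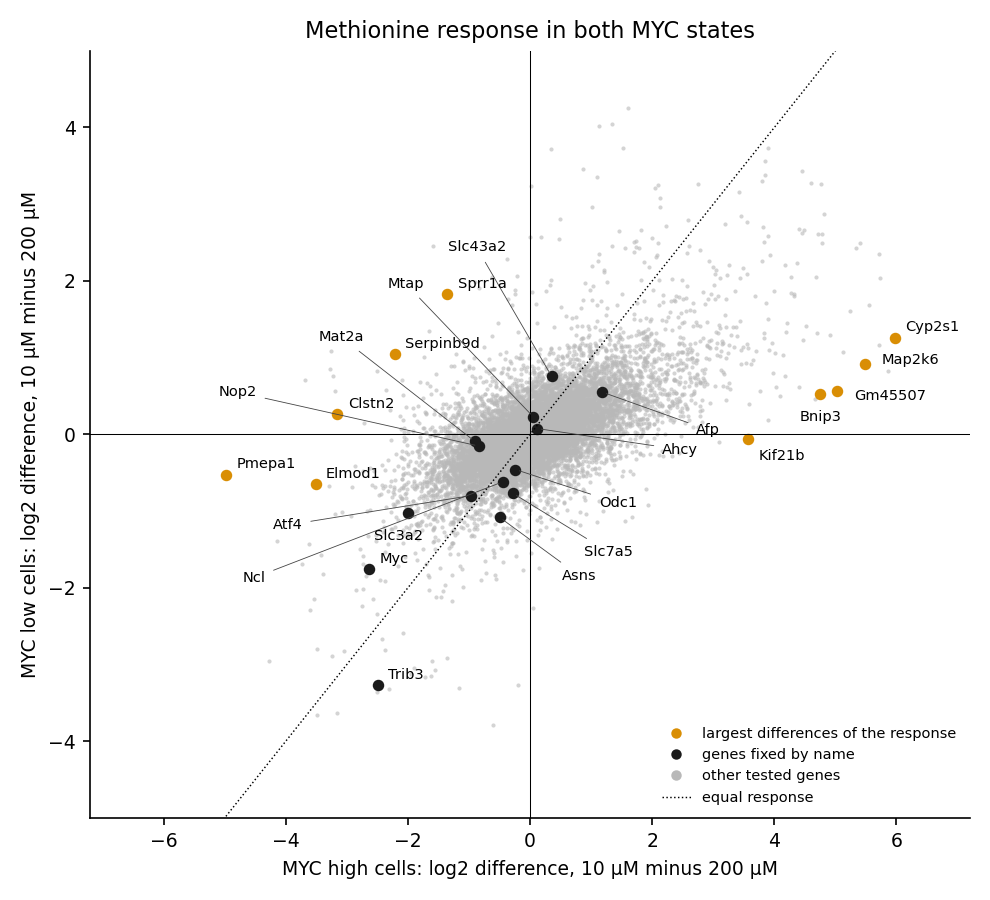
Log2 difference between 10 and 200 µM methionine in MYC low cells (vertical axis) against that in MYC high cells (horizontal axis), 1 point per tested gene, with named genes labelled and a line of equal response. Cyp2s1 lies at 1.26 in MYC low and 5.97 in MYC high cells, Pmepa1 at −0.53 in MYC low and −4.98 in MYC high cells, and Trib3 below the line at −3.27 in MYC low and −2.49 in MYC high cells.

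Among the lists with most members in the same direction in both states were the ATF4 response (42 of 42 lower in MYC low and 38 of 42 in MYC high cells) and cholesterol synthesis (20 of 22 higher in each state, with medians of 0.76 in MYC low and 1.70 in MYC high cells). Glycolysis was higher in 17 of 22 in MYC low and 20 of 22 in MYC high cells, with medians of 0.48 in MYC low and 1.76 in MYC high cells. Mitosis genes were higher in 43 of 53 in MYC low and 40 of 53 in MYC high cells, and fatty acid and glycerolipid synthesis in 19 of 26 in MYC low and 21 of 26 in MYC high cells. Lower in both states were ribosome biogenesis (58 of 85 in MYC low and 69 of 85 in MYC high cells), cytosolic aminoacyl-tRNA synthetases (15 of 20 in MYC low and 16 of 20 in MYC high cells) and DNA replication (31 of 44 in MYC low and 28 of 44 in MYC high cells). Cytosolic ribosomal proteins were lower in 73 of 77 in MYC low cells, with a median of −0.49, and in MYC high cells 38 were lower and 18 higher, with a median of −0.09. The unfolded protein response list had 20 higher and 10 lower in MYC low cells and 5 higher and 19 lower in MYC high cells, with medians of 0.26 in MYC low and −0.27 in MYC high cells. More genes were called in MYC high cells (9731 of the 12849 tested) than in MYC low cells (7646), so the counts of the 2 states have unlike backgrounds. The shares of all genes given above, 29.6% higher and 29.9% lower, are those of MYC low cells. These differences between lists were not tested.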

How the data were processed

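Polyadenylated RNA of EC4 cells was measured with 1 library per sample. Extraction was with a Qiagen kit and library construction with NEBNext Ultra II, per the labels' protocols. The authors deposited 1 signal value per gene and library, a read count divided by a scale factor. FastQC, fastp, STAR, SAMtools, HTSeq, DESeq2 and the build GRCm39 appear, with no versions, in the submitters' processing notes. The annotation release and strand setting are not given in these sources. Genes that overlap, antisense ones included, may therefore share reads. All values (100%) were whole reads times 1 scale factor per library within 0.001, and the factors equalled median-of-ratios scaling over 13969 genes. Symbols came from GENCODE M21 (GRCm38) for 52083 of 55416 identifiers, so no coordinates of the files are printed.

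The deposited signal was analysed as log2 of the value plus 1, which understates fold changes of low genes. All 11 libraries were fitted with limma 3.58.1 (R 4.3.3), with 1 mean per group, moderation with a trend (7 residual and 28.9 prior degrees of freedom), and p-values adjusted by Benjamini-Hochberg over the 12849 genes of a comparison, at 0.05; MYC high cells at 200 µM have 2 libraries, assumed to vary like the rest. SE is limma's, and adjusted p-values are limma's unless another tool is named. On simulated counts of 12711 genes with 199 changed, 84.8% of those changed 1.5-fold and 96.0% of those changed 2-fold were recovered, with 6 false calls. The simulation gave every gene the same dispersion and changed a far smaller share of genes than the 59.5% called in the data. Its figures therefore do not give the error rates of the real comparison. Alternatives were pseudocounts of 0.5 and 5, filters at means of 1 and 50, scaling by library totals, the 6 libraries alone, edgeR 4.0.16 and DESeq2 1.42.0 on the recovered reads, a replicate block and leaving out each MYC low library, with each MYC high library added after seeing the data.

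Named genes are 15 fixed by name, the 10 largest rises and falls with a mean of at least 100, no overlap and an adjusted p under 0.05, up to 6 changed members of each list with the smallest p and up to 4 against its majority, the 5 largest differences of response in each direction, and members named as not passing or as chosen after their values were seen. Lists and members were written from general knowledge with earlier results of these data known, some lists share members, and counts of lists are descriptions. Libraries of 11446651 to 13085689 reads limit a count of 0 to 3 reads, which covers counting error only. Some named genes are not reported here.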

Additional observations from a re-analysis of the deposited data

Results flagged for a closer look

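The methionine response differed between the MYC states by limma's test of the difference for the 23 genes below, given as log2 differences of response, MYC low minus MYC high. They are the 10 genes with the largest differences and 13 of the genes fixed by name. Below 0 were Cyp2s1 (−4.71), Map2k6 (−4.56), Gm45507 (−4.47), Bnip3 (−4.22) and Kif21b (−3.63), all of which rose in MYC high cells, by log2 3.57 to 5.97. In MYC low cells Cyp2s1, Map2k6, Gm45507 and Bnip3 rose by log2 0.53 to 1.26 and Kif21b did not pass the test. Above 0 were Pmepa1 (4.46), Clstn2 (3.41), Serpinb9d (3.27), Sprr1a (3.19) and Elmod1 (2.86), all of which fell in MYC high cells. Of these, Serpinb9d and Sprr1a rose in MYC low cells, by log2 1.05 and 1.83, while Pmepa1 and Elmod1 fell there and Clstn2 did not pass the test (log2 0.26, adjusted p = 0.211), though it did with the 6 libraries alone and with edgeR.

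Among the genes fixed by name, the differences below 0 were those of Trib3 (−0.78), Afp (−0.64), Asns (−0.58), Slc7a5 (−0.49), Odc1 (−0.22) and Ncl (−0.17). Afp rose in both states, by log2 0.55 in MYC low and 1.19 in MYC high cells, and the other 5 fell further in MYC low cells. The differences above 0 were those of Mtap (0.17), Atf4 (0.17), Slc43a2 (0.40), Nop2 (0.68), Mat2a (0.81), Myc (0.88) and Slc3a2 (0.98). Mtap and Slc43a2 rose more in MYC low cells, and the other 5 fell less there. For Mtap the response in MYC high cells was log2 0.06, and its difference was lost without replicate 3 of MYC high cells at 200 µM (0.14, adjusted p = 0.0749). Of the 23 differences it was the single one lost when any of the 11 libraries was left out. The MYC high state has 2 libraries at 200 µM, so its responses rest on fewer libraries than those of MYC low cells.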

How the results depend on the processing

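Leaving out each MYC low library in turn gave 7100 to 7206 genes changed in place of 7646, with 3524 to 3598 higher and 3546 to 3636 lower, 428 to 453 at least 2-fold higher and 257 to 276 at least 2-fold lower; the difference of responses then held for 7447 to 7504 genes in place of 7766. Leaving out each MYC high library, chosen after seeing the data, gave 7631 to 7758 genes changed, 3787 to 3875 higher and 3844 to 3908 lower, and 7211 to 7621 differences of response. The count of genes at least 2-fold higher, 436, was 816 with a filter at a mean of 1 and 221 at a mean of 50, since those filters test more or fewer low genes. With DESeq2, 7049 genes changed, with edgeR 7903 and with the 6 MYC low libraries fitted alone 8030. Scaling by library totals moved the median of all genes to 0.021 and the share of changed genes that were higher to 52.6%, in place of 49.7%. The replicate numbers showed no sign of pairing the libraries. Deviations of same-numbered libraries had correlations of −0.0082 to 0.040 across genes, and those of differently numbered libraries −0.027 to 0.025. With 3 libraries per medium this check cannot exclude a shared culture or batch. The fit with a replicate block called 7630 genes, 7586 of them shared with the 7646, and 7635 differences of response. The block changed the call of none of the 385 tested named genes. Kif21b, which did not pass the test, had a log2 difference of −0.13 to 0.024 in place of −0.06 when 1 library was left out, above 0 without replicate 1 at 200 µM. Depth limits genes under about 10 normalized counts, which were not tested, and ratios of low genes such as Aldh1l1.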
